A study of Homo sapiens with 42 samples.

Results

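Transcripts of the endoplasmic reticulum (ER) chaperones and of the unfolded protein response were followed in 7 human acute lymphoblastic leukaemia cell lines exposed to L-asparaginase. The group is a list of 37 gene symbols, chosen by name and with earlier results of these data known. All 37 had a row in the count tables, out of 50648 genes. The symbol ERO1L is listed there as ERO1A, and that name is used below. Nalm6, SUPB15, RS411, REH and 697 are B-precursor lines and CEM and DND41 are T lines. Each line was left untreated or given L-asparaginase at 1 IU/ml for 4 h, with 3 libraries per group and 42 libraries in all. No line carried an added transgene or a deletion by the labels, all were grown in serum-supplemented medium with added glutamine, and each is 1 established line, so a difference between lines is not a difference between lineages. L-asparaginase, a leukaemia drug, is an enzyme that breaks down asparagine outside the cell and has a weaker activity on glutamine.

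The ER folds proteins that enter the secretory pathway. When unfolded proteins accumulate, they draw the chaperone BiP, the product of HSPA5, and stress reaches the nucleus through 3 sensors. ATF6 is cleaved to a transcription factor, IRE1 (the product of ERN1) splices the XBP1 messenger RNA, and PERK (the product of EIF2AK3) phosphorylates the initiation factor eIF2alpha, which favours translation of ATF4. ATF6 and spliced XBP1 are known to raise chaperones, disulphide isomerases and the machinery that sends misfolded proteins to the proteasome (ER-associated degradation, ERAD). Amino acid shortage reaches eIF2alpha and ATF4 through another kinase, GCN2, with no need for unfolded protein. Counts per gene do not separate the spliced from the unspliced XBP1 message, nor do they show the cleavage of ATF6.

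Known stress elements were searched in the promoters of the members, since they are the binding sites described for this pathway. Promoter windows of 300 bases, from 250 before to 50 after each start site, came from RefSeq on the build GRCh38.p14, and 33 of the 37 members had an entry. PDIA3, DERL1, DERL3 and SEC24D had none. The ER stress element (ERSE, the letters CCAAT and CCACG with 9 bases of any kind between them, on either strand) occurred in 0.0769% of all 35116 promoters and 0.0916% of all genes. Among the members it occurred in 7 of 33 (21.2%). The ER stress element II (ERSE-II, the letters ATTGG and CCACG with 1 base of any kind between them, on either strand) occurred in 0.0541% of promoters and 0.0696% of all genes. Among the members it occurred in 3 of 33 (9.09%), HERPUD1, HYOU1 and SDF2L1. Both elements were described for this pathway, so their share among its genes is not an independent result. A match describes the letters and does not show binding. The 12 matches in 10 members are given below 5′ to 3′ along the strand that carries the element, with the fixed letters in capitals and the free spacer in lower case.
HSPA5: CCAATcggcggcctCCACG
HSP90B1, farther from the start: CCAATcggaaggagCCACG
HSP90B1, nearer to the start: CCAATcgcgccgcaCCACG
CALR: CCAATgatggtcgaCCACG
CANX: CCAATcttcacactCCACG
CRELD2: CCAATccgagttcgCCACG
PDIA6: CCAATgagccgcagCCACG
XBP1: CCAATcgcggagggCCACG
HERPUD1: ATTGGgCCACG
HYOU1, both matches: ATTGGaCCACG
SDF2L1: ATTGGtCCACG

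Promoters are shown for the 3 chaperones whose response differed most between Nalm6 and DND41, among members with an entry, and for HERPUD1, which rose in most lines. Each is the 250 bases before the start site, 5′ to 3′ along the gene's strand, with the match to ERSE or ERSE-II in capitals. HSPA5 lies on the minus strand of chr9:125241344-125241593, HSP90B1 on the plus strand of chr12:103930160-103930409, SDF2L1 on the plus strand of chr22:21642052-21642301 and HERPUD1 on the plus strand of chr16:56931892-56932141. The nearer element of HSP90B1 and the element of SDF2L1 lie on the opposite strand, so that the capitals there show the reverse complement.
HSPA5: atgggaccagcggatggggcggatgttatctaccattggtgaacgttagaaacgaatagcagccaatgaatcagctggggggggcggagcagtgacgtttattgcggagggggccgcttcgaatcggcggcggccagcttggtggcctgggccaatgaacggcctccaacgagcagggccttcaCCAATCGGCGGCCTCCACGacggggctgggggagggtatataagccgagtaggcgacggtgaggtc
HSP90B1: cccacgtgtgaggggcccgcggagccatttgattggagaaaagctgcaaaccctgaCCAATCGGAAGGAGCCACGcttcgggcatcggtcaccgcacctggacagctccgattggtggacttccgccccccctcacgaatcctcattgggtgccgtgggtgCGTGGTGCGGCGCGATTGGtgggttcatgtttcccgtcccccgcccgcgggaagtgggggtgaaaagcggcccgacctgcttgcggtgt
SDF2L1: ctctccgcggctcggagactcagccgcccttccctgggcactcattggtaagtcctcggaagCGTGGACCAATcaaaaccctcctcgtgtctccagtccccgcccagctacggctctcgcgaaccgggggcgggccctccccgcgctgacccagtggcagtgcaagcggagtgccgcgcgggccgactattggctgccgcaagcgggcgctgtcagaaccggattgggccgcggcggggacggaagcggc
HERPUD1: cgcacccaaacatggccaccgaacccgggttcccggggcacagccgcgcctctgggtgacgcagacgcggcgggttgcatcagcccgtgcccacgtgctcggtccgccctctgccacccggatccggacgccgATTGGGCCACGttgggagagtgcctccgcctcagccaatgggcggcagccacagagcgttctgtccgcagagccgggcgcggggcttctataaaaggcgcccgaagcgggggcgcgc

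**Figure D1:**
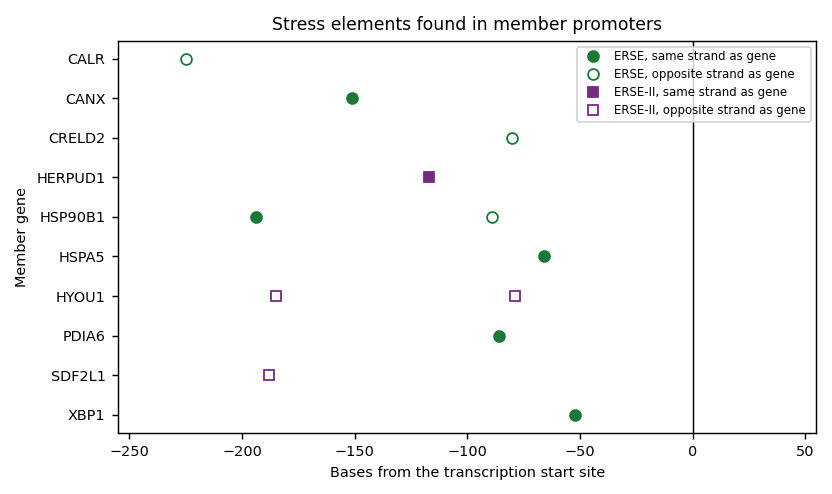
Position of each match to ERSE (circles) or ERSE-II (squares) in the promoters of 10 member genes, in bases from the transcription start site (0), with filled symbols for the gene's own strand and open symbols for the opposite strand. The farthest match is in CALR, at 225 bases before the start. The CANX match is drawn at 151 bases from 1 annotated start and lies 9 and 189 bases from 2 others.

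A pair of shorter motifs was found in more promoters. The unfolded protein response element (UPRE, TGACGTG on either strand) occurred in 1.97% of all promoters and 2.4% of all genes. Among the members it occurred in 4 of 33 (12.1%), DNAJC10, HYOU1, SEC61A1 and TXNDC5. The composite site described for ATF4 and C/EBP (TGATGNAA on either strand) occurred in 3.62% of promoters and 4.46% of all genes. Among the members it occurred in 2 of 33 (6.06%, near the share of all genes), CREB3L2 and HERPUD1. The CREB3L2 match lies 17 bases after 1 of its annotated starts. HERPUD1 thus held both an ERSE-II and a composite site, and no other member did.

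Libraries held 15.07 to 77.14 M counts (M for mega), with a median of 40.28 M, and in CEM every treated library (50.81 to 71.52 M) was deeper than every untreated one (22.68 to 31.6 M). In the B-precursor lines 7 or 8 of 8 B-lineage markers reached 1 CPM (the count relative to the TMM-scaled size of its library) on average, and in CEM and DND41 8 and 7 of 8 T-lineage markers did. VPREB1 was at 0 in the untreated REH libraries, and CD79A stood at 706 to 1060 unscaled CPM in DND41. The 6 erythroid markers together stayed at or below 0.337 CPM in every library. The summed stromal markers (6 genes) were higher after treatment, with no overlap, in SUPB15 (5.45 to 6.78 against 22.4 to 25.7 CPM), 697 (19.9 to 86.1 against 96.1 to 150), Nalm6 (4.66 to 5.68 against 7.86 to 9.89), REH (26 to 33.9 against 37.1 to 61.1) and DND41 (31.5 to 62 against 64.3 to 75), while DCN was at 0 in every treated group of these lines. Only 1 of the 6 markers reached 1 CPM on average in these groups, or 2 in REH. In treated DND41 the sum was PDGFRB alone, with the other markers at 0. The summed plasma cell markers (6 genes) were lower after treatment, with no overlap, in Nalm6 (457 to 603 against 334 to 358 CPM), REH (93.1 to 133 against 60.1 to 67.5), 697 (693 to 1020 against 418 to 558), CEM (150 to 168 against 86.2 to 91.7) and DND41 (138 to 260 against 115 to 118). Of these 6 markers 1 reached 1 CPM on average in CEM, and 2 to 4 did in the other lines named. The summed myeloid markers were higher after treatment in RS411 (2.77 to 5.17 against 6.24 to 6.74 CPM). The summed T-lineage markers were lower, with no overlap, in Nalm6 (59.9 to 75.2 against 35.7 to 41.9 CPM) and DND41 (1970 to 2170 against 1640 to 1720). They were higher, with no overlap, in SUPB15 (5.88 to 8.99 against 11 to 13.9) and REH (21.3 to 28.4 against 32.4 to 47). The summed B-lineage markers were lower, with no overlap, in CEM (55.6 to 65 against 36.8 to 49.7). The part of these markers in the responses below was not tested. In 5 lines (697, DND41, Nalm6, RS411 and SUPB15) the untreated library A or 1 stood apart from its group and held a small share of small noncoding RNA (3.35% to 7.23% of counts, against 5.77% to 17.8% in the other 37 libraries). Of the treated libraries, SUPB15 C held 89 genes at 1 CPM or more that had at most 3 counts in sum in the other 5 libraries of its line, REH A held 19 and RS411 B held 3, and no other library held any. In bulk RNA a change in the share of cells and a change in RNA per cell cannot be told apart.

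Among called members, rises outnumbered falls in Nalm6 and REH, and falls outnumbered rises in SUPB15, RS411, CEM and DND41. In Nalm6 12 members rose and ERO1A fell, that is 13 of 37 or 35.1% called, against 20.8% of all 14952 genes tested (8.96% higher and 11.8% lower). In SUPB15 5 rose and 12 fell (26.1% of all genes called, 12.9% higher and 13.2% lower). RS411 had 4 higher and 9 lower (12.8% of all genes called, 7.58% higher and 5.19% lower). CEM had 7 higher and 17 lower (36.7% of all genes called, 19% higher and 17.7% lower), and DND41 had 2 higher and 13 lower (26.9% of all genes called, 15.1% higher and 11.8% lower). REH also had more rises, with 11 higher and 3 lower (26.5% of all genes called, 13.2% higher and 13.3% lower). In 697, HYOU1 alone was called, that is 2.7% of the members and close to the share of all genes (2.4% called, 1.55% higher and 0.849% lower). The median log2 fold change of the 37 members was 0.40 in Nalm6, -0.24 in SUPB15, -0.17 in RS411, 0.20 in REH, 0.39 in 697, -0.26 in CEM and -0.33 in DND41, while that of all genes lay between -0.029 and -0.003.

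The counts rested on few libraries. Below they are given without the share of all genes in the same run. Counts over all genes also moved between runs in 697, RS411 and SUPB15, as given at the end. The moves are therefore not shown to be particular to the members. In Nalm6 the counts of members were 5 without untreated B, 4 without L-asparaginase B and 5 without L-asparaginase C, and only DNAJB11, HERPUD1, EDEM3 and SEL1L of the 13 were called whichever library was left out. In SUPB15 they were 11 without untreated C, 6 without L-asparaginase B and 10 without L-asparaginase C, and HSPA5, HSP90B1, SDF2L1, HERPUD1, ERN1 and DERL1 were called each time. In RS411 they were 5 without treated A, 4 without treated B and 3 without treated C, with HSPA5, HERPUD1 and XBP1 called each time. In REH they were 7 without untreated B, 7 without L-asparaginase B and 9 without L-asparaginase C, and DNAJB11, DNAJC10, ATF6B, EDEM3, SEL1L and ERO1A were called each time. CEM had 15 called members without L-asparaginase B and 15 without C, and DND41 had 9 and 8. In DND41, HSPA5, HSP90B1, PDIA3, PDIA6, SDF2L1, DERL1 and ERO1A were called each time, and in CEM 13 of its 24 were. In 697 the count was 16, all higher, without the first untreated library, and 0 without any other single library. Over all genes the count in 697 rose as well without that first library. That library was the one with 3.35% small noncoding RNA. The members called without it were HSP90B1, CALR, PDIA3, PDIA4, DNAJB11, DNAJC10, HYOU1, MANF, CRELD2, ERN1, EDEM1, EDEM3, SEL1L, DERL1, SEC24D and CREB3L2. Without the untreated library A, the count was 9 in Nalm6, 20 in SUPB15, 18 in RS411 and 17 in DND41. Without the treated libraries with genes nearly absent from the rest of their line it was 10 in SUPB15, 4 in RS411 and 10 in REH.

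**Figure D2:**
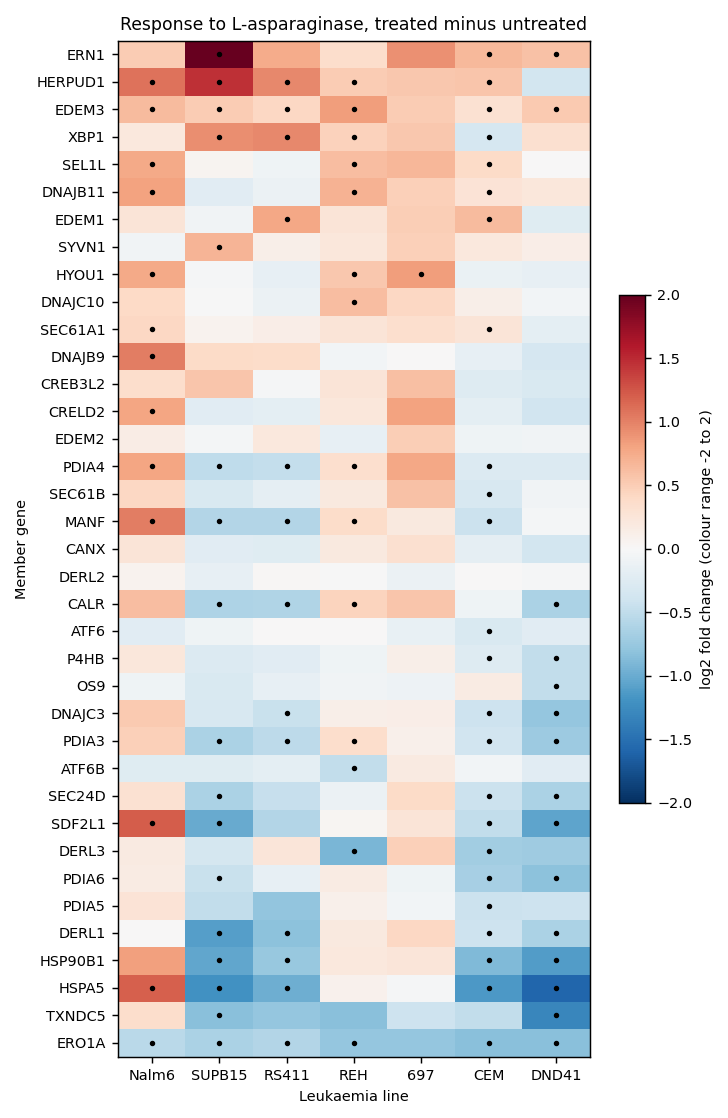
Response of the 37 members (rows, ordered by the mean response of the 7 lines) in each line (columns), as the log2 fold change of L-asparaginase against untreated libraries (red higher, blue lower), with a dot where the adjusted p was under 0.05. The row of ERO1A is blue in every line and the rows of EDEM3 and ERN1 are red in every line, while HSPA5 is red in Nalm6 and blue in SUPB15, RS411, CEM and DND41.

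HSPA5 encodes BiP, the most studied ER chaperone, which also restrains the stress sensors. In Nalm6 it had 118, 87.3 and 212 CPM in the untreated libraries A, B and C and 174, 442 and 321 CPM in the treated ones. The lowest treated library lay under the highest untreated one, so the groups overlapped. HSPA5 rose there by a log2 fold change of 1.20 ± 0.342 (SE, edgeR adjusted p = 0.032), and this call was lost without untreated A (0.061), untreated B (0.085), L-asparaginase B (0.12) or L-asparaginase C (0.076), and with DESeq2 (adjusted p = 0.072). In DND41 it had 100, 149 and 173 CPM untreated and 33.4, 55.7 and 49.2 CPM treated. Every treated DND41 library lay below every untreated one, and the log2 fold change was -1.58 ± 0.221 (adjusted p = 0.0014).

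The same gene fell in 3 more lines. In SUPB15 it went from 131, 132 and 161 CPM to 62.7, 63 and 60.5 CPM (log2 fold change -1.21 ± 0.123, adjusted p = 0.00057). In RS411 it went from 101, 122 and 113 CPM to 55.4, 55.4 and 58.4 CPM (-0.98 ± 0.101, adjusted p = 0.002). In CEM it went from 92, 78.5 and 116 CPM to 40.1, 48.8 and 39.2 CPM (-1.15 ± 0.133, adjusted p = 6.7e-05). None of these groups overlapped, and the call held without any single library in all 4 lines in which HSPA5 fell. In REH the libraries held 96.8 to 102 CPM untreated and 97 to 115 CPM treated (0.09 ± 0.105), and in 697 they held 174 to 231 and 197 to 231 CPM (-0.02 ± 0.189). Neither change passed the test (adjusted p = 0.56 and 0.96).

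HSP90B1 encodes GRP94, the HSP90 family member of the ER. It fell in the same 4 lines as HSPA5, in SUPB15 from 993, 750 and 826 CPM to 383, 456 and 432 CPM (log2 fold change -1.04 ± 0.153, adjusted p = 0.0022) and in DND41 from 511, 433 and 476 CPM to 203, 237 and 208 CPM (-1.11 ± 0.136, adjusted p = 0.00094). The fall was -0.76 ± 0.137 in RS411 (adjusted p = 0.012) and -0.89 ± 0.111 in CEM (adjusted p = 0.0001). The RS411 call was lost without any one of its treated libraries (adjusted p = 0.0524 for A, 0.065 for B and 0.071 for C). In Nalm6 the levels were 542, 345 and 790 CPM untreated and 602, 1240 and 1050 CPM treated, which overlapped, and the change of 0.82 ± 0.302 did not pass the test (adjusted p = 0.081), though it did without untreated C (1.14, adjusted p = 0.028) or L-asparaginase A (1.07, adjusted p = 0.0477). It was 0.21 in REH and 0.24 in 697, with adjusted p of 0.22 and 0.67, and with the library letter as a block HSP90B1 was called higher in REH (0.20, adjusted p = 0.0467).

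**Figure D3:**
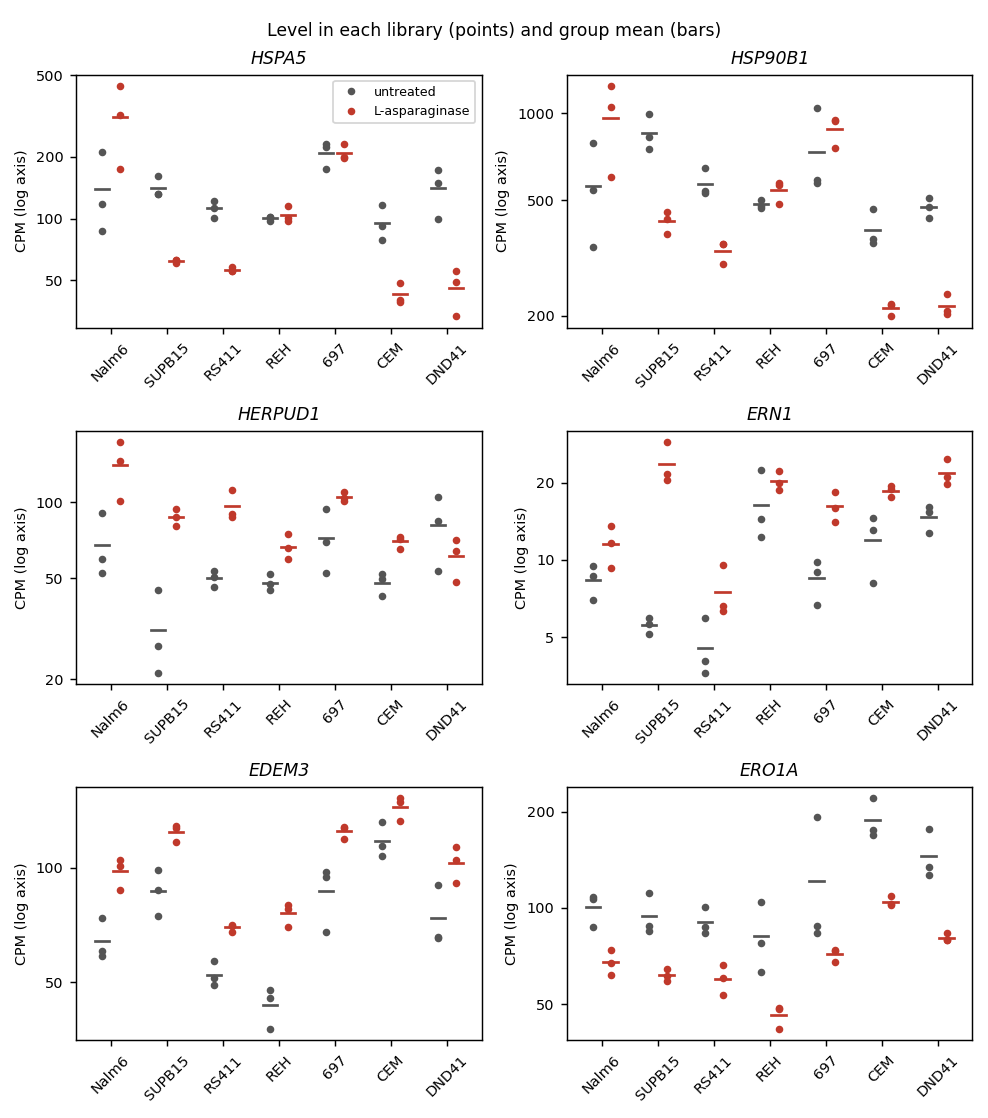
Level of 6 members in each library, in TMM-scaled CPM on a log axis, for the 7 lines, with untreated libraries in grey, L-asparaginase libraries in red and a bar at each group mean. HSPA5 and HSP90B1 have separate groups in SUPB15, RS411, CEM and DND41, EDEM3 and ERO1A have no overlap in any line, and the highest untreated ERO1A point of 697, at 192 CPM, is its first library.

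The other chaperones and co-chaperones of HSPA5 split between lines. SDF2L1, a luminal partner of the HSP40 proteins, rose in Nalm6 from 16.7, 15.6 and 31.8 CPM to 26.6, 70.3 and 47.9 CPM, with overlapping groups (1.21 ± 0.328, adjusted p = 0.026). That call was lost without untreated A (adjusted p = 0.0509), untreated B (0.077), L-asparaginase B (0.11) or L-asparaginase C (0.059). It fell in DND41 from 24.5, 42.6 and 38.9 CPM to 14.3, 18.6 and 17.1 CPM (-1.05 ± 0.197, adjusted p = 0.0047), and also in SUPB15 (-1.01) and CEM (-0.49). HYOU1 (GRP170), a nucleotide exchange factor for BiP, rose in Nalm6 (0.76 ± 0.206, adjusted p = 0.026), REH (0.54, adjusted p = 0.026) and 697 (0.83 ± 0.159, adjusted p = 0.0465) and was called in no other line. In 697 it had 178, 166 and 180 CPM untreated and 332, 310 and 300 CPM treated, so every treated library lay above. The 697 call was lost with the replicate block (adjusted p = 0.14), with RLE size factors (0.055) and without any single library other than the first untreated one (0.11 to 0.28). The REH call was lost without untreated B or C or L-asparaginase A or B (0.058 to 0.087), and the Nalm6 call without untreated B or L-asparaginase B or C (0.07 to 0.1).

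DNAJB9 (ERdj4), an HSP40 protein known to hold IRE1 inactive, rose in Nalm6 from 10.2, 11.8 and 20.4 CPM to 19.7, 35.6 and 29 CPM (1.02 ± 0.255, adjusted p = 0.018). The lowest treated library lay just under the highest untreated one. Its change did not pass the test in SUPB15 (0.38), RS411 (0.36), REH (-0.05), 697 (0.01), CEM (-0.16) or DND41 (-0.33). DNAJB11 (ERdj3), which hands unfolded substrates to BiP, rose in Nalm6 (0.81 ± 0.174, adjusted p = 0.0093), REH (0.70, adjusted p = 0.001) and CEM (0.28, adjusted p = 0.014), with no overlap in any of the 3. DNAJC10 (ERdj5), a reductase of the ERAD pathway, rose in REH (0.61, adjusted p = 0.0028). DNAJC3 (p58IPK), a co-chaperone that also inhibits eIF2alpha kinases, moved the other way in RS411 (-0.45, adjusted p = 0.021), CEM (-0.42, adjusted p = 0.0013) and DND41 (-0.78 ± 0.184, adjusted p = 0.013). In DND41 it fell from 118, 185 and 164 CPM to 70.2, 104 and 93 CPM, with no overlap.

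MANF and CRELD2 are small ER-resident proteins that can also be secreted under stress. MANF rose in Nalm6 (1.03 ± 0.286, adjusted p = 0.029) and REH (0.36, adjusted p = 0.043) and fell in SUPB15 (-0.59, adjusted p = 0.03), RS411 (-0.59, adjusted p = 0.021) and CEM (-0.43, adjusted p = 0.011). With the library letter as a block its SUPB15 call was lost (adjusted p = 0.06). The Nalm6 libraries held 62, 40.1 and 86.4 CPM untreated and 76.8, 164 and 136 CPM treated, so that treated A lay under untreated C. CRELD2 rose in Nalm6 (0.79 ± 0.208, adjusted p = 0.023) and had a value of 0.80 in 697 that missed the threshold (adjusted p = 0.086). In DND41 it was called lower with the block (-0.39, adjusted p = 0.037).

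The lectin chaperones CALR and CANX hold glycoproteins that carry a trimmed sugar tag. CALR (calreticulin) rose in REH from 364, 386 and 403 CPM to 542, 513 and 470 CPM (0.44 ± 0.111, adjusted p = 0.014). It fell in DND41 from 731, 603 and 702 CPM to 432, 413 and 440 CPM (-0.64 ± 0.142, adjusted p = 0.01), in SUPB15 (-0.61, adjusted p = 0.0094) and in RS411 (-0.60, adjusted p = 0.016). The groups did not overlap in any of these 4 lines. The calls were lost without SUPB15 L-asparaginase B (adjusted p = 0.053), RS411 L-asparaginase A, B or C (0.063, 0.1 and 0.094), REH untreated B (0.063) or L-asparaginase B (0.0542), and DND41 L-asparaginase B (0.052) or C (0.055). In Nalm6 its value was 0.62 (adjusted p = 0.12), in 697 0.55 (adjusted p = 0.16) and in CEM -0.08 (adjusted p = 0.59). CANX (calnexin), its membrane-bound counterpart, was called in no line, with values of 0.26, -0.22, -0.25, 0.19, 0.32, -0.18 and -0.36 in Nalm6, SUPB15, RS411, REH, 697, CEM and DND41. In DND41 CANX was called with the letter as a block (-0.33, adjusted p = 0.0476).

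The protein disulphide isomerases form and rearrange disulphide bonds. PDIA3 (ERp57), which works with CALR and CANX, rose in REH (0.35, adjusted p = 0.037) and fell in SUPB15 (-0.64, adjusted p = 0.021), RS411 (-0.53, adjusted p = 0.0497), CEM (-0.38, adjusted p = 0.019) and DND41 (-0.73 ± 0.122, adjusted p = 0.0029). Its DND41 libraries went from 325, 294 and 316 CPM to 180, 197 and 177 CPM, with no overlap, and its RS411 call was lost with the letter as a block (adjusted p = 0.061). PDIA4 (ERp72) rose in Nalm6 (0.79 ± 0.233, adjusted p = 0.036) and REH (0.34, adjusted p = 0.0457) and fell in SUPB15 (-0.51), RS411 (-0.47) and CEM (-0.27). PDIA6 fell in SUPB15 (-0.44, adjusted p = 0.044, lost with the block at 0.062), CEM (-0.66, adjusted p = 0.00037) and DND41 (-0.82 ± 0.12, adjusted p = 0.0017). P4HB, the first isomerase of the family described and also a subunit of prolyl 4-hydroxylase, fell in CEM (-0.26) and DND41 (-0.49 ± 0.121, adjusted p = 0.016).

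PDIA5 fell in CEM (-0.43, adjusted p = 0.019), and with the block it was also called lower in RS411 (-0.78, adjusted p = 0.03) and DND41 (-0.39, adjusted p = 0.0484). TXNDC5 (ERp46) fell in SUPB15 (-0.83, adjusted p = 0.039) and in DND41 from 1.44, 1.99 and 1 CPM to 0.515, 0.565 and 0.683 CPM (-1.31 ± 0.336, adjusted p = 0.018). With the block TXNDC5 was also called lower in RS411 (-0.74, adjusted p = 0.0483) and REH (-0.80, adjusted p = 0.017). It rested on 14 to 251 counts per library, and the read-through gene that contains it had 0 counts in every library, so its counts are uncertain where reads of the locus could not be assigned.

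ERO1A, the oxidase that passes electrons from the isomerases to oxygen and is also known as a hypoxia-responsive gene, was the member that fell most widely. It fell in 6 lines, by log2 fold changes of -0.54 ± 0.123 in Nalm6 (adjusted p = 0.011), -0.64 in SUPB15 (0.011), -0.59 in RS411 (0.025), -0.78 in REH (0.004), -0.83 in CEM (8.9e-05) and -0.83 ± 0.137 in DND41 (0.0028). In 697 the value was -0.78 ± 0.348 and did not pass the test (adjusted p = 0.27). In Nalm6 the levels went from 107, 87 and 108 CPM to 61.6, 67.3 and 73.7 CPM, and in DND41 from 127, 134 and 176 CPM to 79.4, 83.3 and 79.2 CPM. Treated and untreated libraries did not overlap in any of the 7 lines. The calls in REH, CEM and DND41 held without any single library, and those of Nalm6, SUPB15 and RS411 were lost at adjusted p of 0.0504 to 0.11 without 1 of some libraries (Nalm6 L-asparaginase A or B, SUPB15 L-asparaginase B or C, RS411 untreated B or L-asparaginase A, B or C).

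The sensors themselves responded unequally. ERN1, which encodes the kinase and ribonuclease IRE1, rose in SUPB15 from 5.62, 5.91 and 5.15 CPM to 28.7, 20.5 and 21.5 CPM (2.06 ± 0.178, adjusted p = 0.00032), the largest change of any member in any line. It rose in CEM (0.65, adjusted p = 0.01) and in DND41 from 16.1, 15.3 and 12.7 CPM to 19.7, 24.7 and 21 CPM (0.59 ± 0.156, adjusted p = 0.02). The groups did not overlap in these 3 lines. Its values elsewhere were 0.50 in Nalm6 (adjusted p = 0.071), 0.74 in RS411 (0.11), 0.35 in REH (0.24) and 0.92 in 697 (0.086). With the letter as a block ERN1 was also called higher in RS411 (adjusted p = 0.019) and REH (adjusted p = 0.039).

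ATF6 fell in CEM (-0.30, adjusted p = 0.0085) and was called in no other line, with values of -0.23 in Nalm6, -0.09 in SUPB15, 0.01 in RS411, 0 in REH, -0.15 in 697 and -0.23 in DND41. Its paralogue ATF6B, a weaker activator, fell in REH (-0.50, adjusted p = 0.0062). CREB3L2, a membrane-bound relative of ATF6 that acts on the secretory pathway, was called in no line, with values between -0.30 and 0.60.

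XBP1, whose spliced message encodes the transcription factor of the IRE1 branch, rose in 3 lines. In SUPB15 it went from 858, 1370 and 1540 CPM to 1720, 2580 and 2970 CPM (0.93 ± 0.258, adjusted p = 0.028), in RS411 from 287, 369 and 318 CPM to 557, 648 and 669 CPM (0.96 ± 0.126, adjusted p = 0.0045), and in REH from 233, 238 and 288 CPM to 296, 384 and 335 CPM (0.46, adjusted p = 0.019). In CEM it fell from 154, 137 and 160 CPM to 126, 115 and 115 CPM (-0.33, adjusted p = 0.011). None of these groups overlapped. Nalm6 (0.21, adjusted p = 0.51), 697 (0.54, adjusted p = 0.2) and DND41 (0.32, adjusted p = 0.23) gave no call, though DND41 did with the block (adjusted p = 0.041). In SUPB15 and RS411, XBP1 and HERPUD1 were thus higher after L-asparaginase in the same libraries in which HSPA5 was lower.

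ERAD carries misfolded proteins back to the cytosol. HERPUD1 (HERP), a membrane protein that helps assemble the degradation complex, rose in 5 lines. In Nalm6 it went from 52.3, 59.9 and 90.2 CPM to 101, 172 and 145 CPM (1.08 ± 0.212, adjusted p = 0.0058). In SUPB15 it went from 21.3, 27.2 and 45.2 CPM to 80.3, 87 and 94.1 CPM (1.46 ± 0.243, adjusted p = 0.0036). All treated libraries of both lines lay above the untreated ones, and the calls held without any single library, as they did in RS411 (0.96, adjusted p = 0.0062) and CEM (0.55, adjusted p = 0.00055). REH gave 0.51 (adjusted p = 0.0076, lost without L-asparaginase B at 0.057) and 697 gave 0.54 (adjusted p = 0.23). DND41 had 53.7, 84.1 and 105 CPM untreated and 48.5, 71 and 64.2 CPM treated, with overlapping groups and a value of -0.37 ± 0.22 that did not pass the test (adjusted p = 0.24). It was called lower in DND41 with the block (-0.34, adjusted p = 0.042) and without the first untreated library (-0.58, adjusted p = 0.024).

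EDEM3, a mannosidase that trims glycoproteins bound for degradation, was the member that rose in most lines. It rose in Nalm6 from 60.2, 58.7 and 73.7 CPM to 87.5, 105 and 101 CPM (0.64 ± 0.118, adjusted p = 0.0044) and in DND41 from 65.6, 65.1 and 90.2 CPM to 91.3, 113 and 105 CPM (0.52 ± 0.15, adjusted p = 0.03). It rose in REH (0.84 ± 0.105, adjusted p = 0.00041), SUPB15 (0.50), RS411 (0.42) and CEM (0.31), and in 697 it had a value of 0.51 (adjusted p = 0.21). Treated and untreated libraries did not overlap in any of the 7 lines. The calls in Nalm6 and REH held without any single library. Those in SUPB15 (without untreated B, L-asparaginase B or C), RS411 (without untreated B or C or any treated library), CEM and DND41 (each without untreated B, L-asparaginase B or C) were lost, at adjusted p of 0.057 to 0.17.

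The related mannosidase EDEM1 rose in RS411 (0.78, adjusted p = 0.012) and CEM (0.63, adjusted p = 0.0002), and with the block in REH (0.25, adjusted p = 0.022). EDEM2 was called in no line. SEL1L, the scaffold of the ubiquitin ligase complex, rose in Nalm6 (0.76 ± 0.129, adjusted p = 0.0031), REH (0.61, adjusted p = 0.00095) and CEM (0.39, adjusted p = 0.0028), and in Nalm6 it went from 106, 106 and 116 CPM to 149, 210 and 185 CPM. SYVN1 (HRD1), the ligase itself, rose in SUPB15 (0.68, adjusted p = 0.019). The lectin OS9, which delivers glycoproteins to this complex, fell in DND41 (-0.50 ± 0.133, adjusted p = 0.022).

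The derlins are membrane proteins of the export channel of ERAD. DERL1 fell in the lines in which HSPA5 fell, in SUPB15 from 116, 125 and 119 CPM to 51.7, 57.9 and 60.5 CPM (-1.10 ± 0.114, adjusted p = 0.00058), in RS411 (-0.82, adjusted p = 0.0069), CEM (-0.42, adjusted p = 0.0021) and DND41 (-0.63 ± 0.125, adjusted p = 0.0062). The RS411 call was lost without L-asparaginase C (-0.76, adjusted p = 0.058), and the other 3 held without any single library. In REH it was called higher with the block (0.20, adjusted p = 0.0453). DERL2 was called in no line. DERL3, the derlin of secretory cells, fell in REH from 8.15, 9.38 and 7.11 CPM to 5.54, 4.38 and 3.05 CPM (-0.91, adjusted p = 0.014) and in CEM (-0.70, adjusted p = 0.025).

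The remaining members act in transport into or out of the ER. SEC61A1, the pore of the translocon, rose in Nalm6 (0.41 ± 0.123, adjusted p = 0.038) and CEM (0.25, adjusted p = 0.0472), and with the block in REH (0.26, adjusted p = 0.0081). SEC61B, a small subunit of the same channel, fell in CEM (-0.32, adjusted p = 0.023). SEC24D, a cargo adaptor of the COPII coat, fell in SUPB15 (-0.63, adjusted p = 0.0085), CEM (-0.43, adjusted p = 0.0034) and DND41 from 39.2, 33.8 and 38.6 CPM to 23, 25 and 22.7 CPM (-0.63 ± 0.127, adjusted p = 0.0064). HSPA5, CALR, PDIA3, PDIA4, SDF2L1, MANF and XBP1 each rose in at least 1 line and fell in at least 1 other. CANX, EDEM2, DERL2 and CREB3L2 were called in no line.

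Nalm6 and DND41 were compared directly through the difference of their responses, fitted with all 42 libraries. This pair of lines was set with earlier results of these data known. The difference passed the test for 18 of 37 members (48.6%), all higher in Nalm6, against 5.39% of all 20983 genes tested (2.1% higher and 3.29% lower in Nalm6). Its median over the members was 0.68, and 0 over all genes. The largest were HSPA5 at 2.77 ± 0.35 (adjusted p = 3e-06), which is 6.84-fold, SDF2L1 at 2.26 ± 0.399 (adjusted p = 0.00035) and HSP90B1 at 1.92 ± 0.313 (adjusted p = 0.00014). TXNDC5 followed at 1.65 ± 0.5 (adjusted p = 0.044) on its low counts. HERPUD1 (1.45, adjusted p = 0.0046), DNAJB9 (1.35, 0.025), DNAJC3 (1.29, 0.0003), CALR (1.25, 0.00062), PDIA3 (1.20, 0.0083), CRELD2 (1.17, 0.0037), PDIA4 (1.07, 0.0072) and MANF (1.06, 0.036) came next. The other 6 were PDIA6, SEC24D, HYOU1, SEL1L, P4HB and DERL1, between 0.63 and 0.99.

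ERN1, XBP1, ATF6, EDEM3 and ERO1A were among the 19 members whose difference did not pass. It was -0.11 ± 0.307 for ERN1, -0.12 ± 0.296 for XBP1, 0 ± 0.163 for ATF6, 0.11 ± 0.193 for EDEM3 and 0.28 ± 0.278 for ERO1A, with adjusted p of at least 0.74. A missed threshold does not show that the 2 responses were alike, given these standard errors. Among the 18, 12 were called whichever of the 12 libraries of the 2 lines was left out, namely HSPA5, HSP90B1, CALR, PDIA3, PDIA4, PDIA6, P4HB, DNAJC3, SDF2L1, CRELD2, HERPUD1 and SEC24D. With the library as a block 17 were called, and MANF was lost (adjusted p = 0.0522). The count was lowest, at 12, without Nalm6 L-asparaginase B, the treated library with the highest HSPA5.

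**Figure D4:**
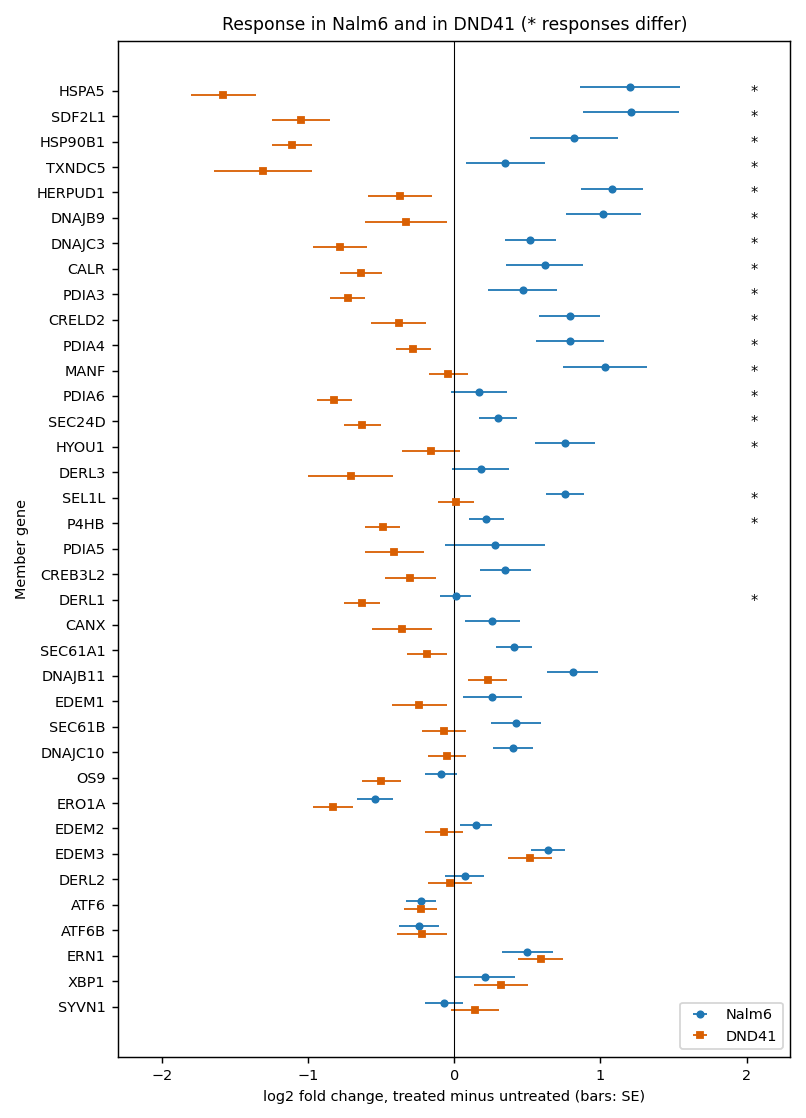
Log2 fold change of each member after L-asparaginase in Nalm6 (blue circles) and DND41 (orange squares), with bars of 1 SE and members ordered by the difference of the 2 responses, largest at the top. An asterisk marks the 18 members whose difference had an adjusted p under 0.05, from HSPA5 (1.20 against -1.58) to DERL1 (0.01 against -0.63).

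The response differed among the 7 lines for 22 of 37 members (59.5%) in the joint test of treatment and line, against 19.4% of all genes. The smallest adjusted p belonged to DERL1 (4.8e-08), HSPA5 (2.2e-06), CALR (2e-05), HSP90B1 (2.5e-05), PDIA4 (9.3e-05), SEC24D (0.0004), SDF2L1 (0.00055) and DNAJC3 (0.00062). ERO1A (adjusted p = 0.95) and EDEM3 (0.49) gave no call, and their responses had 1 sign in all 7 lines. ERO1A was called without the 5 first untreated libraries (adjusted p = 0.039).

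Averaged over the 7 lines with equal weight, 11 members rose and 14 fell (67.6% called, against 37.4% of all genes, 17.8% higher and 19.6% lower). The rises were in ERN1 (0.82 ± 0.0831, adjusted p = 4.2e-10), HERPUD1 (0.66 ± 0.0873, 1.1e-07), EDEM3 (0.52 ± 0.0518, 2.8e-10), XBP1 (0.43 ± 0.0794, 3.9e-05), SEL1L (0.33), DNAJB11 (0.29), EDEM1 (0.29), SYVN1 (0.24), HYOU1 (0.22), DNAJC10 (0.18) and SEC61A1 (0.17). The falls were in ERO1A (-0.72 ± 0.0748, adjusted p = 6.5e-10), TXNDC5 (-0.63 ± 0.132, 0.00019), HSPA5 (-0.53 ± 0.0921, 1.2e-05), HSP90B1 (-0.37 ± 0.083, 0.00043), DERL1 (-0.35), PDIA5 (-0.27), PDIA6 (-0.27), SEC24D (-0.24), ATF6B (-0.20), PDIA3 (-0.20), DNAJC3 (-0.18), OS9 (-0.17), P4HB (-0.16) and ATF6 (-0.15). Both directions occurred within the roles. Of the ERAD genes HERPUD1, EDEM1, EDEM3, SEL1L and SYVN1 rose while DERL1 and OS9 fell, and of the chaperones HYOU1, DNAJB11 and DNAJC10 rose while HSPA5, HSP90B1 and DNAJC3 fell. PDIA3 lost its call with the block (adjusted p = 0.063), where DNAJB9 gained one (0.19, adjusted p = 0.031).

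Untreated levels differed between lines for most members, as they did for most genes. The joint test over the 21 untreated libraries called 34 of 37 members (91.9%), against 80.4% of all genes, and the 3 members not called were DNAJB9, SEC61B and OS9. The widest range of group means on the log2 CPM scale was that of DERL3, 9.28-fold between DND41 (0.998, 1.3 and 1.1 CPM) and RS411 (7.69, 12.9 and 11.5 CPM). XBP1 followed with 8.12-fold, from CEM (137 to 160 CPM) to SUPB15 (858 to 1540 CPM). In both genes the lowest and highest groups did not overlap. The order of XBP1 by mean was SUPB15, DND41, Nalm6, RS411, REH, 697 and CEM, and the libraries of SUPB15 and DND41, of DND41 and Nalm6, of RS411 and REH and of REH and 697 overlapped.

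CRELD2 ranged 5.84-fold from RS411 (7.51 to 9.04 CPM) to SUPB15 (40.9 to 54.7 CPM). SYVN1 ranged 5.04-fold from CEM (6.94 to 12.3 CPM) to Nalm6 (43.3 to 49.5 CPM), and DND41 (8.79 to 10.7 CPM) was within the range of CEM. EDEM1 ranged 5.03-fold from CEM (179 to 203 CPM) to SUPB15 (651 to 1170 CPM). PDIA5 ranged 4.36-fold from SUPB15 (3.54 to 4.34 CPM) to DND41 (14.8 to 22.1 CPM), and PDIA6 ranged 4.14-fold from CEM (228 to 289 CPM) to Nalm6 (969 to 1190 CPM). MANF ranged 3.97-fold from REH (22.2 to 27.1 CPM) to DND41 (91.3 to 99 CPM). SUPB15 was thus the highest line for 3 of these 8 members and CEM the lowest for 4.

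**Figure D5:**
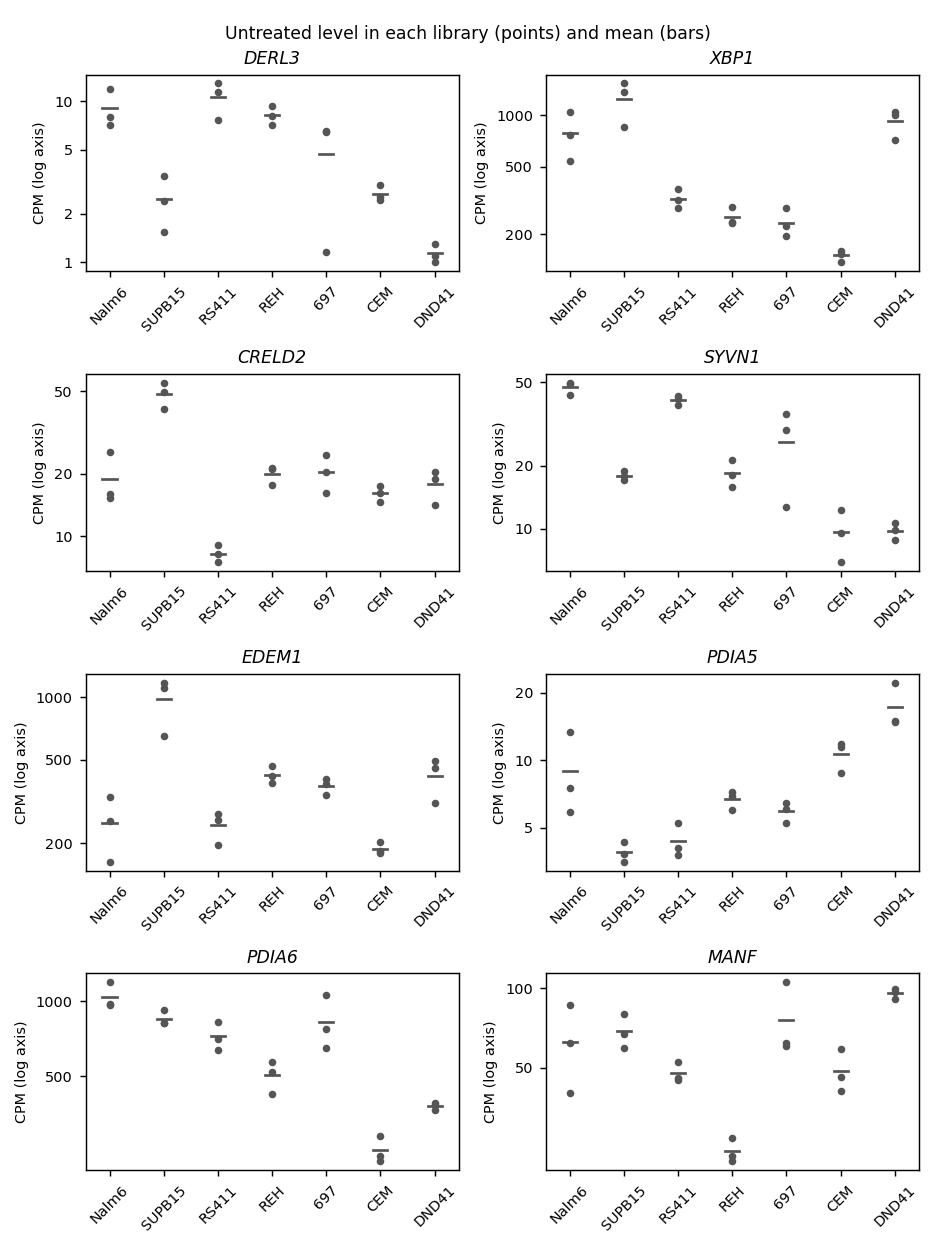
Untreated level, in TMM-scaled CPM on a log axis, of the 8 members with the widest range between lines, with a point per library and a bar at the mean of 3. XBP1, CRELD2 and EDEM1 are highest in SUPB15 and SYVN1 and PDIA6 in Nalm6, and in the panel of DERL3 the first untreated library of 697 (1.16 CPM) lies far below the other 2 of that line (6.53 and 6.42 CPM).

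HSPA5 started from like levels in Nalm6 and DND41, at 139 ± 65.1 and 141 ± 36.9 CPM (SD, n = 3). The untreated comparison of the 2 lines called 12 members (32.4%), against 42.1% of all 19693 genes tested (22.5% higher and 19.6% lower in Nalm6). Nalm6 was higher in DERL3 (3.00 ± 0.45, adjusted p = 1.4e-05), SYVN1 (2.29 ± 0.271, 6.4e-07), PDIA6 (1.47 ± 0.179, 9.3e-07), DNAJC10 (0.54), ATF6 (0.45) and DERL1 (0.42). It was lower in PDIA5 (-0.94), DNAJC3 (-0.92), ERN1 (-0.80), EDEM2 (-0.77), EDEM1 (-0.73) and P4HB (-0.67). HSP90B1, with 559 ± 223 CPM in Nalm6 and 473 ± 39.1 CPM in DND41, gave no call (0.26 ± 0.247, adjusted p = 0.45). The 3 members with the largest difference of response, HSPA5, SDF2L1 and HSP90B1, were not among the 12. SDF2L1 had 21.4 ± 9.05 CPM in Nalm6 and 35.3 ± 9.59 CPM in DND41 and missed the threshold (-0.71 ± 0.297, adjusted p = 0.062). A missed threshold does not show that the untreated levels were alike.

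Targets of the PERK arm and genes shared with other stresses moved in 1 direction on average. Of 14 tested, 13 rose over the mean of the lines, with a median log2 fold change of 1.14, against -0.04 for the members and -0.015 for all genes (92.9% called, against 37.4% of all genes). SESN2, a stress-induced inhibitor of mTORC1 signalling, rose by 2.59 ± 0.168 (adjusted p = 9.6e-15) and STC2, a secreted glycoprotein, by 2.51 ± 0.367. TRIB3, a pseudokinase target of ATF4, rose by 2.37 and DDIT3, which encodes CHOP, by 2.28 ± 0.0781 (adjusted p = 1e-21). STC2 was not tested in DND41 by itself. In Nalm6 8 of 14 rose (57.1%, against 8.96% of all genes) and in DND41 7 of 13 (53.8%, against 15.1% of all genes). The difference of the 2 responses was called for 2 of 14 (14.3%, against 5.39% of all genes), 1 in each direction. DDIT3 rose by 2.51 ± 0.139 in Nalm6 and 1.09 ± 0.153 in DND41 (adjusted p = 8.1e-06 and 0.0015). The list was chosen with earlier results of these data known.

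Further ER genes moved in both directions, and the shares called are to be read against 37.4% of all genes for the mean response and 5.39% for the difference of Nalm6 and DND41. Of the 15 regulators of the ATF6 and IRE1 pathways 7 rose and 2 fell on average (60% called), led by MBTPS2, the second protease that cleaves ATF6 (0.69 ± 0.0582, adjusted p = 6.1e-12), and CREB3L4, a relative of ATF6 (-0.67 ± 0.107, adjusted p = 3.5e-06), and 1 of 15 (6.67%) differed between Nalm6 and DND41. Of 29 genes of the translocon, signal peptidase and oligosaccharyltransferase 3 rose and 7 fell (34.5% called, close to the share of all genes), SEC11C by 0.75 and STT3B by -0.42, and 4 (13.8%) differed between the 2 lines. Of 22 other ERAD genes 2 rose and 9 fell (50% called), UBXN8 by 0.66 and NGLY1, which removes sugars from exported glycoproteins, by -0.62, and 2 (9.09%) differed. Of 35 other folding genes 9 rose and 11 fell (57.1% called), with the HSP70 relative HSPA13 at 0.49 and the calcium-binding RCN2 at -0.65, and 2 (5.71%) differed. Of 24 COPII genes 6 rose, among them PREB (0.34), and 4 fell, among them the cargo receptor LMAN1 (-0.34), which is 41.7% called and close to the share of all genes. Of 9 plasma cell and secretory B-cell genes 3 fell (33.3% called, under the share of all genes). They were SDC1 (-1.73 ± 0.633, adjusted p = 0.029), MZB1, an ER chaperone of antibody-secreting cells (-0.76), and BACH2 (-0.74). Within single lines, 4 of the 9 were tested in CEM, 5 in DND41 and 6 in REH, and SDC1 was not tested in DND41.

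Members with and without the printed elements were set side by side. The 10 members with an ERSE or ERSE-II had a median log2 fold change of 0.78 in Nalm6, with values from 0.17 to 1.21, and -0.51 in DND41, with values from -1.58 to 0.32. The 23 with an entry and neither element had medians of 0.35 and -0.22. The difference between the 2 lines was called for 8 of the 10, with a median of 1.21, and for 7 of the 23, with a median of 0.49. It was also called for 3 of the 4 members with no entry, with a median of 0.9. Of all genes 5.39% were called for this difference. Of the 10, XBP1 (-0.12) and CANX (0.62) were not called. In SUPB15, 2 of the 10 rose (HERPUD1 and XBP1) and 5 fell, and of the 23, 3 rose and 4 fell (all genes, 12.9% higher and 13.2% lower). Medians of the 10 and of the 23 were -0.33 and -0.17 in SUPB15, -0.22 and -0.12 in RS411 and 0.22 and 0.19 in REH. They were 0.43 and 0.33 in 697, -0.26 and -0.08 in CEM and -0.05 and 0.04 for the mean response. These are descriptions of a small and chosen list, with no test.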

How the data were processed

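Gene counts from RNA sequencing of 7 leukaemia cell lines were used as deposited by the authors, in 1 table of whole-number counts per line. The build was hg19 per the submitters' processing notes. Aligner, annotation and strand setting: not given in the sources used here. Reads of overlapping sense and antisense genes therefore cannot be told apart. Members, gene lists and the pair of lines compared were chosen with earlier results of these data known. Under the rule for named genes, all 37 members are accounted for, and values are given for HSPA5, HSP90B1, DNAJB9, HERPUD1, XBP1, ERN1, ATF6, CALR and CANX in every line, for members called in Nalm6, DND41, their difference or the mean, and for the largest changes elsewhere.

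Genes were kept by edgeR's filterByExpr (minimum count 10), which all 37 members passed in every line, and scaled by TMM. Each line was tested with edgeR 4.0.16 (R 4.3.3, limma 3.58.1), by the quasi-likelihood test between its 3 treated and 3 untreated libraries. The mean, the difference between lines and Nalm6 against DND41 came from 1 model of 14 groups, and untreated levels from 1 model of 21 libraries. P-values were adjusted by Benjamini-Hochberg over all genes tested, and genes under 0.05 were called. The scripts were tested on simulated data. Errors of fold changes are standard errors. The 2 gene names that occurred in more than 1 row of a count table were left out (at most 0.000949% of a library).

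Columns of 6 lines carry letters that are in no sample label, and those of 697 carry the labels' replicate numbers. Same-lettered libraries deviated together (correlation above 0.1 for every letter) in SUPB15, RS411, REH, CEM and DND41 and not in Nalm6 (lowest 0.05) or 697 (lowest -0.07). The lowest same-letter value was 0.15 in SUPB15 and, just above the limit before rounding, 0.10 in RS411, where the highest between other letters was 0.11 and 0.24, so that in RS411 the pairing is weak. It rests on the data and the column letters alone. The 3 libraries of a group come from independent experiments per the labels. Alternatives were DESeq2 1.42.0, RLE factors, no filter, the replicate block and leaving out libraries or lines. PDIA3 shares sequence with its pseudogene PDIA3P1, whose counts were 0.372% to 1.99% of those of PDIA3.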

Additional observations from a re-analysis of the deposited data

Results flagged for a closer look

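The responses of Nalm6 and DND41 to L-asparaginase differed, by a test of the difference itself (edgeR, adjusted p under 0.05), in 18 members, all higher in Nalm6. Among the chaperones and their partners the difference in log2 fold change was 2.77 for HSPA5, 2.26 for SDF2L1, 1.92 for HSP90B1, 1.35 for DNAJB9, 1.29 for DNAJC3, 1.25 for CALR, 1.17 for CRELD2, 1.06 for MANF and 0.91 for HYOU1. Among the disulphide isomerases it was 1.65 for TXNDC5, 1.20 for PDIA3, 1.07 for PDIA4, 0.99 for PDIA6 and 0.70 for P4HB. In degradation and export it was 1.45 for HERPUD1, 0.92 for SEC24D, 0.75 for SEL1L and 0.63 for DERL1.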

How the results depend on the processing

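No member result changed direction while called under any alternative run. With RLE factors 270 member results kept their side of the threshold and 7 did not (3 gained, 4 lost), and with DESeq2 255 kept it, 19 were gained and 3 lost. In 697 the count of called members was 0 with RLE factors, 5 with DESeq2, 0 with the replicate block and 16 without the first untreated library. Without the treated library holding genes nearly absent from the rest of its line it was 10 in SUPB15 and 4 in RS411. Leaving out 1 library at a time gave 0 to 16 in 697, 15 to 26 in CEM, 8 to 17 in DND41, 4 to 16 in Nalm6, 7 to 12 in REH, 3 to 18 in RS411, 6 to 20 in SUPB15, 23 to 26 for the mean, 20 to 24 for the difference among lines, 12 to 20 for Nalm6 against DND41, 9 to 13 for their untreated levels and 33 to 34 for untreated levels among lines. The causes were not tested. With the replicate block, members called numbered 16 in Nalm6, 15 in SUPB15, 15 in RS411, 20 in REH, 24 in CEM, 20 in DND41, 25 for the mean, 24 among lines and 17 for Nalm6 against DND41. Over all genes the count in 697 went from 367 to 1659 with DESeq2, 16 with the block and 3664 without its first untreated library, in RS411 from 2087 to between 272 and 4517, in SUPB15 from 3950 to between 1716 and 6328, and in REH from 4120 to 6683 with the block. The low counts of TXNDC5, DERL3 and PDIA5 limit what was detectable in them.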
